A study of Mus musculus with 4 samples.

Results

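Translation initiation and elongation factors are the proteins that load ribosomes onto mRNA, find the start codon and move the ribosome along the message. Their genes were described in Th17 cells of the mouse, a class of CD4 helper T cell named for its cytokine interleukin 17. Members were the protein-coding autosomal genes whose GENCODE symbol starts with Eif or Eef followed by a digit, without the Eif2ak kinases: 60 genes of the 50600 listed. The rule used names only and no measured value. The data are 4 total RNA-seq libraries of primary Th17 cells of the C57BL/6NJ strain, 1 group with no treated or control arm, with 72 hr in the file headers. The labels give 4 biosamples, numbered as biological replicates, under 1 donor identifier, age unknown and sex not collected, and point to a document on T cell differentiation in vitro. They do not say whether the biosamples came from separate animals, so p-values measure only the spread between these samples, of which an unknown part may be technical.

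An activated T cell depends on these factors to grow and to secrete cytokines. A start codon is found by the small ribosomal subunit with eIF1, eIF1A, eIF3 and the initiator tRNA carried by eIF2, whose GTP is renewed by eIF2B. The subunit is brought to the mRNA cap by eIF4F, made of the cap-binding eIF4E, the scaffold eIF4G and the helicase eIF4A, and the eIF4E-binding proteins (4E-BPs) block that assembly when the kinase mTOR is inactive. Elongation then needs eEF1A, which delivers aminoacyl-tRNA, its exchange factor eEF1B, and eEF2, which moves the ribosome by a codon.

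Total counts were 33123029 to 37746767 per library, and the 60 members took 2.87% to 3.12% of them. The cells carried T cell markers, with Cd4 at 500 ± 16.2 TPM (mean ± SD, n = 4; TPM is a length-corrected share of a library's transcripts, on a scale that sums to 1000000). All 6 Th17 markers were present, and 5 of them (Il17a, Il17f, Il22, Ccr6 and Il23r) were lower in replicate 2, which stands apart from the other libraries in these data. Summed over each marker list, B cell genes had 0.448 to 1.24 TPM and erythroid genes 0 to 0.359 TPM. Epithelial and stromal genes summed to 2.06 to 2.65 TPM and myeloid genes to 16.7 to 18.4 TPM. Most of the myeloid sum came from Cd68 and Adgre1, which averaged 9.46 and 7.96 TPM. Itgam and Csf1r averaged 0.200 and 0.0730 TPM, and Lyz2 had 0 in every library. The libraries also differed in a Y-linked factor gene. Eif2s3y, the Y copy of the eIF2 gamma subunit gene, had 2493 and 3709 counts in replicates 1 and 2 but 15 and 18 in replicates 3 and 4. The labels, with 1 donor identifier, do not describe this difference. Where each replicate is set against the rest below, the rest thus mixed libraries with high and low Eif2s3y counts. No term for this was fitted.

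The factors were abundant, and most of them were among the more highly expressed genes of the cell. Of the 60 members, 57 exceeded 1 TPM in every library, 53 exceeded 25 TPM on average, 41 exceeded 100 and 5 exceeded 1000. Their median level was 171 TPM. Together they made up 30244 to 32450 TPM of each library, and Eef1a1 and Eef2 alone held 40.3% of that. The 3 members under 1 TPM on average were Eif4e1b, a relative of the cap-binding gene, Eef1a2, the eEF1A isoform of muscle and neurons, and Eif4ebp3. Eif4e1b had 0 counts in all 4 libraries. Eef1a2 had 1, 0, 0 and 2 counts in replicates 1 to 4. Both fell under the minimum of 10 summed counts, so 58 members were tested for differences between libraries.

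**Figure D1:**
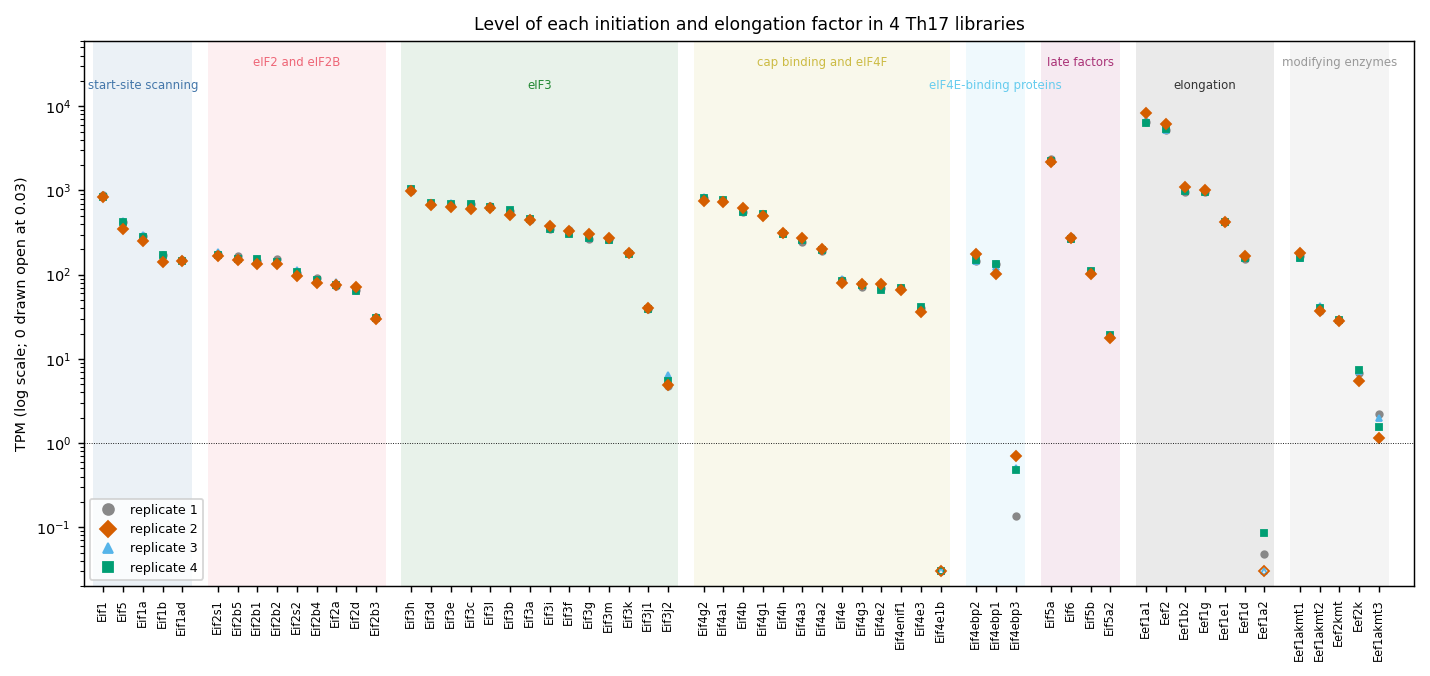
TPM of each of the 60 members (log axis) in each library, grouped by role and ordered by mean level; symbols mark the 4 replicates, and values of 0 are drawn open at the bottom. Elongation factors reach the highest levels (Eef1a1 6965 and Eef2 5506 TPM on average), and only Eif4e1b, Eef1a2 and Eif4ebp3 lie under the dotted line at 1 TPM.

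The elongation factors held the largest share, 48.6% of the members' summed TPM. Eef1a1 (ENSMUSG00000037742.14, mm10 chromosome 9, bases 78478449 to 78489151) stood at 6548, 8214, 6775 and 6322 TPM in replicates 1 to 4. Eef2 (ENSMUSG00000034994.10, chromosome 10, bases 81176631 to 81182498) stood at 5296, 6085, 5207 and 5436 TPM. In both genes replicate 2 was the highest library and lay above the range of the others. The subunits of the exchange factor eEF1B were unequal in level. Eef1b2 had 1018 ± 54.7 and Eef1g 974 ± 23.6 TPM (SD, n = 4), while Eef1d had 159 ± 5.35 TPM. The range from Eef1d to Eef1b2 was 6.42-fold, and 2.76-fold without length correction. With each gene's longest protein-coding transcript as length the range was 4.13-fold, from Eef1d to Eef1g. Eef1e1, which encodes a partner of the multi-synthetase complex, had 424 ± 1.87 TPM, and 125 TPM with the transcript length. On TPM its relative spread was the smallest of any tested member (0.442% of its mean). In the test of replicate 2 below, on another scale, it had a log2 change of 0.07.

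Among the initiation factors, Eif5a, Eif3h and Eif1 stood highest by summed exon length. Eif5a, which encodes the hypusine-bearing factor that helps ribosomes past difficult stretches, had 2272 ± 86.0 TPM, and Eif1, the gatekeeper of start-codon choice, 851 ± 31.3 TPM (SD, n = 4). The 12 core subunit genes of eIF3, the scaffold on the small subunit, ranged from 180 TPM for Eif3k to 1013 TPM for Eif3h, a 5.64-fold range. That range was far wider than the difference between libraries: on the log2 scale the SD between subunits was 0.74, against a median SD between libraries of 0.05. It narrowed to 3.19-fold when each gene's longest protein-coding transcript replaced its summed exon length. With that length Eif3i stood highest at 862 TPM, and Eif3k, at 390 TPM, was no longer the lowest. No order of these subunits is therefore given. The loosely attached eIF3j subunit is encoded by 2 genes, and both were low, Eif3j1 at 39.4 ± 0.842 and Eif3j2 at 5.39 ± 0.796 TPM.

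The genes for eIF2 and eIF2B were lower. Eif2s1, the alpha subunit gene through whose phosphorylation stress lowers translation, had 176 ± 7.67 TPM, and Eif2s2, the beta subunit gene, 106 ± 7.39 TPM (SD, n = 4). With the longest protein-coding transcript as length the order turned, to 187 TPM for Eif2s1 and 206 TPM for Eif2s2, so no order of these subunits is given. The gamma subunit is encoded on the sex chromosomes and so lay outside the members. Its X copy Eif2s3x stood at 72.2, 73.7, 138 and 129 TPM in replicates 1 to 4, and its Y copy Eif2s3y at 60.5, 77.8, 0.343 and 0.386 TPM. Replicates 1 and 2 thus had both copies, and replicates 3 and 4 had the X copy at a higher level; the 2 copies summed to 133, 152, 138 and 129 TPM. The copies are close in sequence, so the split of reads between them is uncertain. The 5 eIF2B subunit genes ranged from 30.4 TPM for Eif2b3 to 157 TPM for Eif2b5, a 5.15-fold range that was 3.73-fold with the transcript length and 2.54-fold without length correction.

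Of the eIF4F genes, the scaffold-like Eif4g2, the helicase Eif4a1 and the scaffold Eif4g1 had 802 ± 30.0, 759 ± 19.3 and 512 ± 8.58 TPM (SD, n = 4), while the cap-binding gene Eif4e had 85.4 ± 3.99 TPM. With the transcript length Eif4a1 had 1354 TPM. Eif4b and Eif4h, which encode helpers of the helicase, had 568 ± 36.4 and 309 ± 4.53 TPM. Eif4a3, the helicase of the exon junction complex, had 258 ± 9.82 TPM. The 4E-BP genes Eif4ebp2 and Eif4ebp1 had 155 ± 14.7 and 124 ± 15.04 TPM, and their sum was 3.03 to 3.48 times the level of Eif4e in each library. This ratio rests on summed exon length and was not computed with other lengths. Eif4ebp3 had 1, 6, 4 and 4 counts. It shares 67.3% of its exon length with Ankhd1 on the same strand, and reads in such shared exons are left out under the counter's defaults, so its level is uncertain.

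Modifying enzymes were the lowest group. Eef1akmt1, a lysine methyltransferase of eEF1A, had 167 ± 10.6 TPM, Eef1akmt2 39.0 ± 2.47 and Eef2kmt, the methyltransferase of eEF2, 28.9 ± 0.488 TPM (SD, n = 4). Eef2k, the kinase that inhibits eEF2, had 6.73 ± 0.867 TPM and Eef1akmt3 1.72 ± 0.464 TPM.

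Where a factor has related genes, 1 of them usually led in every library. Levels were compared for 11 pairs as differences in log2(TPM + 0.1) within each library. Eef1a1 had 209018 times as many counts per base as Eef1a2, with a 95% counting interval of 71522 to 1013550 that covers counting error only. In the pairs with Eef1a2 and Eif4ebp3 the size of the log2 difference rests on the 0.1 added to near-zero levels, and only its sign is used. Eif5a lay 6.93 ± 0.06 above Eif5a2 on the log2 scale (SD, n = 4), or 7.65 with the transcript length. Eif4a1 lay 1.96 ± 0.05 above Eif4a2, which corresponds to 3.98, 3.67, 3.98 and 3.91 times its TPM in replicates 1 to 4. Eif1 lay 2.37 ± 0.12 above Eif1b, Eif3j1 2.86 ± 0.20 above Eif3j2, and Eif4g1 2.77 ± 0.06 above Eif4g3. Eif4g1 lay 0.65 ± 0.04 below Eif4g2, which encodes a factor that lacks the eIF4E-binding part. Eif4e lay 1.12 ± 0.05 above Eif4e3. By summed exon length, each of the 11 differences had the same sign in 4 of 4 libraries. The exact sign-flip test, two-sided, gave p = 0.13 in every pair, raw and after Benjamini-Hochberg adjustment, which is the smallest p that 4 libraries allow.

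In 2 pairs the members were close. Eif4e and Eif4e2, the cap-binding gene whose product represses translation, differed by 0.28 ± 0.15, and the sign turned to −0.56 with the longest protein-coding transcript as length and to −0.035 without length correction. No order of these 2 levels is therefore given. Eif4ebp1 and Eif4ebp2 differed by −0.12, −0.78, −0.24 and −0.14 in replicates 1 to 4. Their mean difference of −0.32 became −0.19 with the longest protein-coding transcript as length. The gap was widest in replicate 2, where Eif4ebp1 had 0.581 times the level of Eif4ebp2, against 0.920, 0.846 and 0.904 times in the other libraries.

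The starts of the genes were examined because many mRNAs of the translation machinery carry a 5′ terminal oligopyrimidine (TOP) tract, a C at the first base followed by pyrimidines, through which mTOR and LARP1 control their translation. RefSeq promoter sequences (GRCm38.p6, 250 bases before to 50 after each start) held 44 of the 60 members, with 58 starts. Those of Eef1akmt1, Eef1akmt3, Eef1d, Eef1g, Eif1a, Eif2b3, Eif3e, Eif3h, Eif3i, Eif3j2, Eif4e1b, Eif4e3, Eif4ebp1, Eif4ebp3, Eif4g2 and Eif6 were not used here. A C at the annotated first base followed by at least 4 bases that are C or T was found in 1 of 44 members, Eif3f (2.27%, 95% Wilson interval 0.402% to 11.8%), and in 3.01% of the 27025 genes of the table. Allowing the tract to begin within 10 bases of the annotated start gave 13 of 44 members (29.5%), against 34.4% of all genes. The first 30 bases of 4 members are shown because they include the factor with the tract and the elongation and helicase-helper genes that differed most in replicate 2, with the longest run of a C and at least 4 pyrimidines in capitals where there is one.
Eif3f (chr7:108934415-108934444, plus strand): CTCTCTTTCTCggcaagatggcttctccgg
Eef2 (chr10:81176631-81176660, plus strand): gttgacgtcagcggtCTCTTCCgccgcagc
Eif4b (chr15:102073773-102073802, plus strand): cgccgcgccaCCCCCTCgcgctgctttacg
Eef1a1 (chr9:78481695-78481724, minus strand): ttcccgagggtgggggagaacggtatataa
In Eef2 and Eif4b the run lay inside the window rather than at its first base, and in Eef1a1 no such run was found in these 30 bases. Eef1a1 and Eif4b, but not Eef2, were among the 13 members with a tract within 10 bases of the annotated start. The run of Eef2 lay further in. The counted tract of Eef1a1 began before its annotated start, since the 30 bases shown hold no such run. Such a match does not show a tract at the start of the mRNA. A match or its absence describes only these letters, and annotated starts need not be the starts used in these cells. The shares above thus cannot say whether members carry TOP tracts more or less often than other genes.

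The same windows were searched for 4 motifs, chosen after the windows had been seen. CACGTG, the E-box bound by MYC and related factors, CCGGAAGT, a motif of ETS factors, and TGACGTCA, the cAMP response element, were searched on both strands, and TATAAA, the TATA box, on the gene's strand. CACGTG was found in 12 of 44 members (27.3%), in 8.09% of all 27025 genes and in 12.4% of the 5039 genes of the table with a mean of at least 25 TPM. CCGGAAGT was found in 8 of 44 members (18.2%), in 4.31% of all genes and in 12.2% of those with at least 25 TPM. TGACGTCA was found in 1 of 44 members (2.27%), against 2.03% and 3.93%, and TATAAA in 4 of 44 (9.09%), against 9.77% and 4.803% of the same gene sets. No other property of the windows, such as base composition or number of starts, was matched. Members with CACGTG had a median log2 change of 0.01 in replicate 2 and members without it 0.02. Windows of 60 bases from 4 members with a single annotated start are shown because they span different roles, with the motif in capitals.
Eef2 (chr10:81176562-81176621, plus strand): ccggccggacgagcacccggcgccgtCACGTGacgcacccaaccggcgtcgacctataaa
Eif1b (chr9:120492556-120492615, plus strand): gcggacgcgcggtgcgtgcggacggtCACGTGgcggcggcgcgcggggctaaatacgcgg
Eif3f (chr7:108934321-108934380, plus strand): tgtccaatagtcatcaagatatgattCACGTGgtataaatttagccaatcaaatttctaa
Eif4g1 (chr16:20672647-20672706, plus strand): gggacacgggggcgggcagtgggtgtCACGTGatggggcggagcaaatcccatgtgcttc

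The factors varied little between libraries. Over the 53 members that averaged 25 TPM or more, the median SD of log2(TPM + 0.1) was 0.06, and over all 6405 tested genes at or above that level it was 0.08. Without replicate 2 the medians were 0.03 and 0.05. The widest spreads at that level were those of Eif4ebp1 (0.18), Eef1a1 (0.17), Eif5 (0.15), Eif1b (0.14) and Eif4ebp2 (0.13). The members as a set lie at higher levels than the genes they are set against, 258 against 67.1 TPM in the median, and no test of this difference was made.

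**Figure D2:**
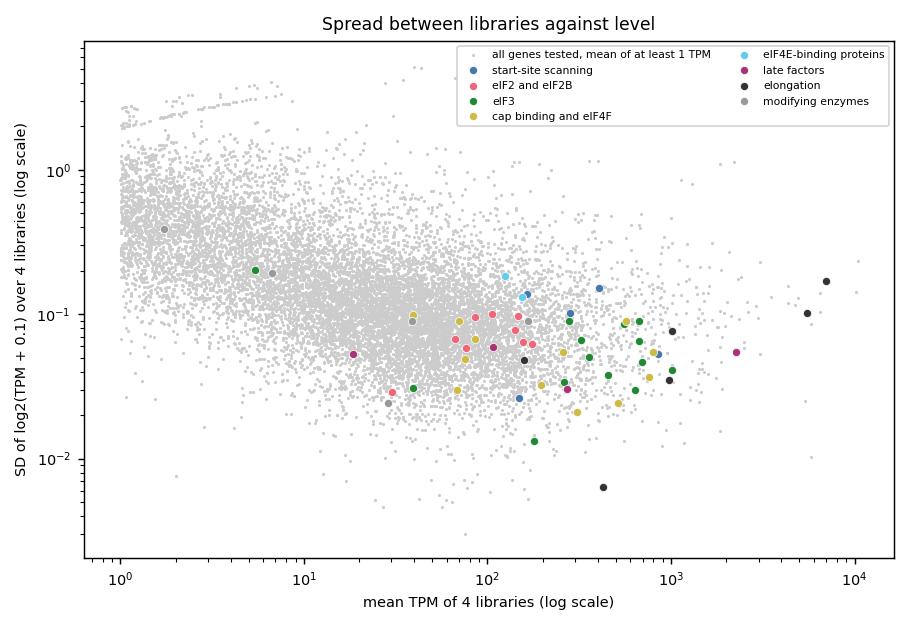
SD of log2(TPM + 0.1) over the 4 libraries against mean TPM (both axes logarithmic) for all tested genes with a mean of at least 1 TPM (grey) and for members coloured by role. Most members lie low in the cloud, and Eef1a1 (0.17) and Eef2 (0.10) stand at its right-hand end.

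With no treated group, the comparison across libraries is each replicate in turn against the other 3. Replicates 1, 3 and 4 gave no member past the test (edgeR quasi-likelihood test with Benjamini-Hochberg adjustment over 17337 genes; 0 of 58 in each, 0 at an unadjusted p under 0.05 and 0 by DESeq2). Of all genes 0% passed edgeR's adjusted test in each of these comparisons, 1.04%, 1.57% and 0.842% had an unadjusted p under 0.05, and DESeq2 called 0.0115%, 0.0865% and 0.0173%, in replicates 1, 3 and 4. With replicate 2 left out, edgeR still called 0 of 57 members in each, against 0.608%, 0.614% and 0.229% of all genes tested in replicates 1, 3 and 4. The members' median log2 change was −0.02 in replicate 1, 0.00 in replicate 3 and −0.03 in replicate 4, and that of all genes −0.01 in each.

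In replicate 2, 14 of 58 members (24.1%) differed, 11 of them higher and 3 lower. In all genes tested 21.1% differed, 10.9% higher and 10.2% lower. DESeq2 called 17 of the 57 members that it gave an adjusted p (29.8%), against 20.8% of such genes. EdgeR called 17 of 59 members (28.8%) against 17.7% of genes with no filter beyond 1 count, and 15 of 57 (26.3%) against 30% with at least 100 summed counts. The members' share thus lay above or below the background with the setting, and no test of this difference was made. The changes were small: none exceeded 2-fold, the median absolute log2 change of the 14 was 0.24, and that of all genes that differed was 0.41. These medians were not matched for level. At a mean of at least 1 TPM, members had a median of 180 TPM and all genes tested 24.0 TPM. The members' median log2 change was 0.02 and that of all genes −0.01. With total-count scaling the split was 8 higher and 8 lower. Each such test sets 1 library against 3, and the spread of that single library is taken to equal that of the rest. The Th17 markers listed above were lower in the same library (1415 TPM summed, against up to 6188), and their part in these changes was not tested.

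**Figure D3:**
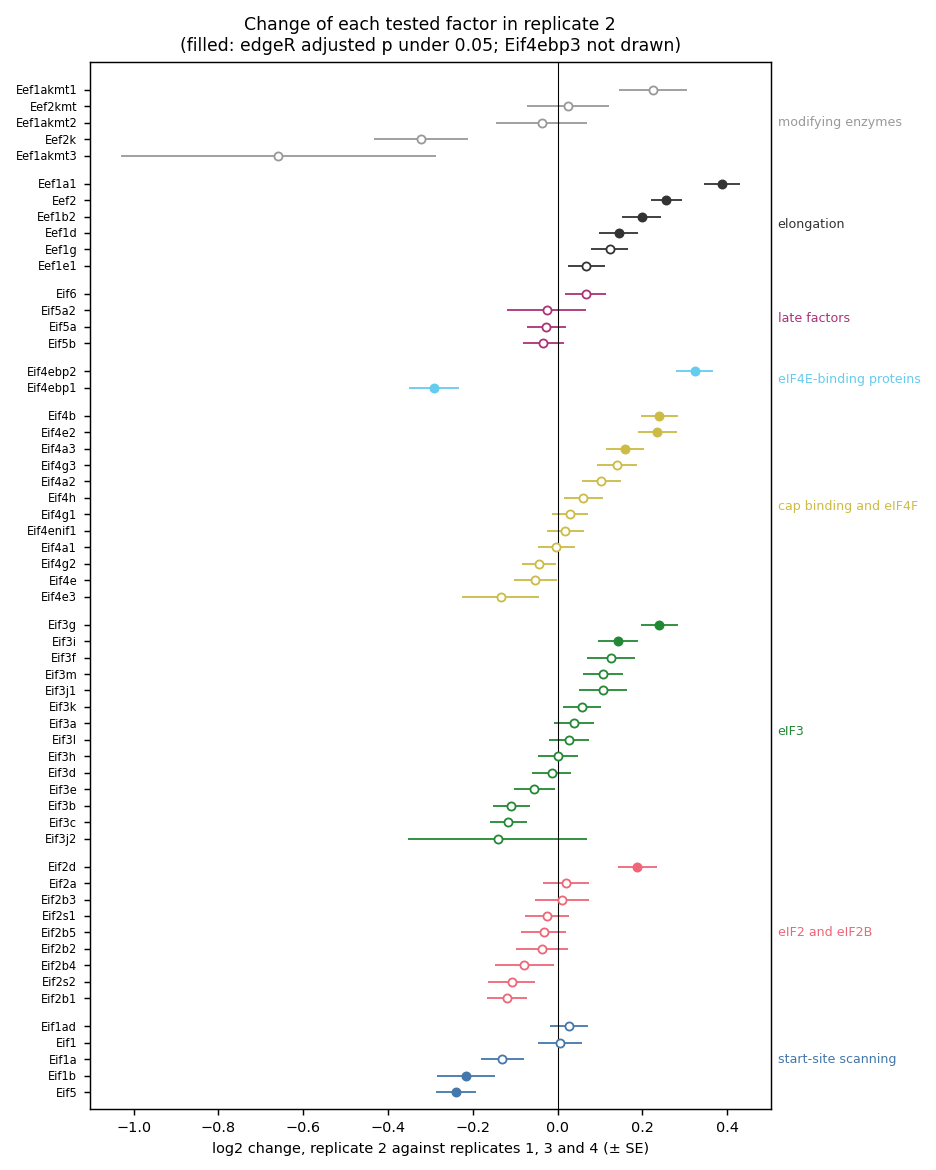
Log2 change of replicate 2 against replicates 1, 3 and 4, with its SE, for 57 of the 58 tested members by role; filled points passed edgeR's adjusted p of 0.05, and Eif4ebp3 (15 counts in all) is left out. All 6 elongation factors lie to the right of 0, and Eif4ebp2 and Eif4ebp1 lie on opposite sides.

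Of the 6 tested elongation factors, 4 were higher in replicate 2 and 0 lower, against 10.9% and 10.2% of all genes tested. No role was tested as a set. Eef1a1 was higher by a log2 change of 0.39 ± 0.04 (SE), which is 1.31-fold (edgeR adjusted p = 2.2e-05). Eef2 was higher by 0.26 ± 0.04 (edgeR adjusted p = 0.000182), Eef1b2 by 0.20 ± 0.05 (edgeR adjusted p = 0.00799) and Eef1d by 0.14 ± 0.05 (edgeR adjusted p = 0.0421). Eef1g had 0.12 ± 0.04 (edgeR adjusted p = 0.0631), a call that DESeq2 made and that edgeR made without replicate 1, 3 or 4. Eef1e1 had 0.07 ± 0.04 with no call. Eef1d lost its call with scaling to total count (0.12).

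The 4E-BP genes moved in opposite directions. Eif4ebp2 (ENSMUSG00000020091.15, chromosome 10, bases 61428491 to 61452661) stood at 147, 177, 147 and 148 TPM in replicates 1 to 4, with 147.6 ± 0.504 TPM in the 3 libraries other than replicate 2 (SD, n = 3). Eif4ebp1 (ENSMUSG00000031490.6, chromosome 8, bases 27260329 to 27276674) stood at 135, 103, 125 and 134 TPM. In replicate 2 Eif4ebp2 was higher by 0.32 ± 0.04 and Eif4ebp1 lower by −0.29 ± 0.06 (SE; edgeR adjusted p = 0.000155 and 0.00282). On TPM their summed level was 283, 280, 272 and 282, with replicate 2 inside the range of the others. TPM in replicate 2 lay at a median of −0.05 (log2) against the others, so it reads low beside the fitted changes. The sum was not computed on the fitted scale, and a constant total is not shown.

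Start-site factors fell or had no call. Eif5, which encodes the GTPase activator of eIF2, stood at 420, 345, 436 and 421 TPM, and was lower in replicate 2 by −0.24 ± 0.05 (SE; edgeR adjusted p = 0.00268). Eif1b was lower by −0.22 ± 0.07 (edgeR adjusted p = 0.0393), a call that DESeq2 did not make and that was lost without replicate 4. Eif1a had −0.13 ± 0.05 with no call, which became a call without replicate 4 (−0.16), with scaling to total count (−0.16) and with no filter (−0.13). Eif1 and Eif1ad had 0.01 and 0.03.

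**Figure D4:**
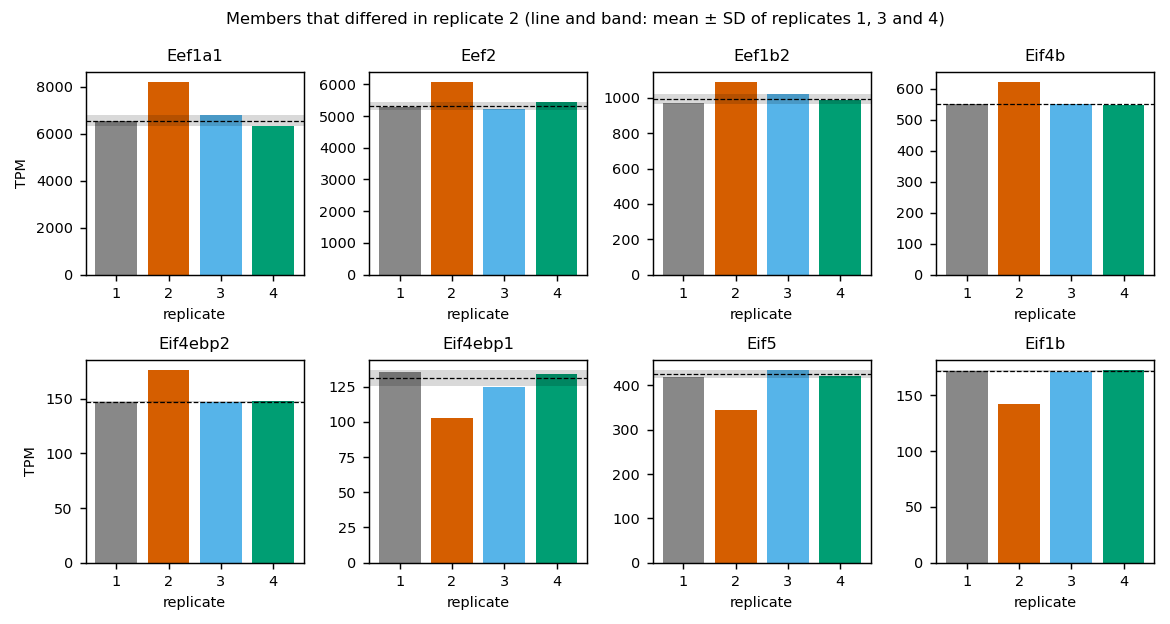
TPM by library for 8 members that differed in replicate 2 (bars from 0), with the mean and SD of replicates 1, 3 and 4 as a dashed line and band. Eef1a1, Eef2, Eef1b2, Eif4b and Eif4ebp2 are highest and Eif4ebp1, Eif5 and Eif1b lowest in replicate 2.

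Among the cap-binding and eIF4F genes 3 of 12 were higher in replicate 2 and 0 were lower, against 10.9% and 10.2% of all genes tested. Eif4b, whose product stimulates the helicase, stood at 550, 623, 551 and 549 TPM and was higher by 0.24 ± 0.04 (SE; edgeR adjusted p = 0.00125). Eif4e2 was higher by 0.24 ± 0.05 (edgeR adjusted p = 0.00242) and Eif4a3 by 0.16 ± 0.05 (edgeR adjusted p = 0.0239), the last not with scaling to total count (0.13). The 3 central eIF4F genes had no call, with −0.0029 for Eif4a1, 0.03 for Eif4g1 and −0.05 for Eif4e. Eif4g3 had 0.14 ± 0.05 (edgeR adjusted p = 0.0506), which became a call by DESeq2, under 2 other filters on counts, and without replicate 3 or 4.

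Of the 14 eIF3 genes 2 were higher (14.3%), against 10.9% of all genes tested. Eif3g stood at 267, 304, 270 and 270 TPM and was higher by 0.24 ± 0.04 (SE; edgeR adjusted p = 0.00150), while Eif3i was higher by 0.14 ± 0.05 (edgeR adjusted p = 0.0488). The call of Eif3i was lost without replicate 4 (0.13) and under 3 other settings. Eif3b and Eif3c, core subunits that contact the start-site factors, had −0.11 and −0.12 with no call by edgeR. DESeq2 called both lower, as did edgeR with scaling to total count (−0.13 and −0.14), and edgeR called Eif3c without replicate 1 or 3. In the eIF2 and eIF2B group 1 of 9 was higher, Eif2d, which encodes a factor that binds initiator tRNA without eIF2, by 0.19 ± 0.05 (edgeR adjusted p = 0.0103). Eif2s1 and Eif2s2 had −0.02 and −0.11 with no call. The share of 1 in 9 for this group (11.1%) lay near the 10.9% of all genes tested.

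Neither late factors nor modifying enzymes gave a call in replicate 2. At an unadjusted p under 0.05, which 32% of all genes passed, 0 of the 4 late factors passed, and 0 did by DESeq2, with Eif5a at −0.03 and Eif6, which keeps the large subunit free, at 0.07. Of the 5 modifying enzymes 2 passed at that unadjusted p and 0 by DESeq2. These were Eef2k at −0.32 ± 0.11 (edgeR adjusted p = 0.0587) and Eef1akmt1 at 0.23 ± 0.08 (edgeR adjusted p = 0.0687), both of which passed without replicate 1 (−0.35 and 0.25).

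Other genes of translation control were counted from lists of the pathway. Beside these counts, edgeR called 10.9% of all genes tested higher and 10.2% lower in replicate 2. No list was tested against these shares. Of 6 genes for eIF2-alpha kinases and phosphatase subunits, 3 were lower and 1 higher in replicate 2. Ppp1r15a and Ppp1r15b, subunits that direct a phosphatase to eIF2-alpha, were lower by −0.35 ± 0.08 and −0.18 ± 0.05, the amino acid sensor Eif2ak4 by −0.26 ± 0.08, and the heme-regulated kinase Eif2ak1 was higher by 0.17 ± 0.05 (log2 ± SE). Of 9 mTOR and MNK genes 1 was higher, the TOP mRNA regulator Larp1 at 0.13 ± 0.04, and 0 were lower. Of 8 poly(A)-binding and helper genes 3 were higher and 0 lower, with Pabpc4 at 0.25 ± 0.05, Paip2 at 0.19 ± 0.05 and Pabpc1 at 0.12 ± 0.04. Of 6 termination and recycling genes 1 was lower, Hbs1l at −0.17 ± 0.04. Of 10 mitochondrial factors 2 were higher, Mtif3 at 0.33 ± 0.10 and Gfm2 at 0.26 ± 0.05. Of 9 genes for hypusine and diphthamide synthesis, the modifications of eIF5A and eEF2, 0 passed by edgeR or DESeq2 and 2 had an unadjusted p under 0.05, as 32% of all genes did. DESeq2 did not call Eif2ak1 or Mtif3, and it called the helicase gene Ddx3x, among the poly(A)-binding and helper genes, lower. The other calls in these lists were made by both tools.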

How the data were processed

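The authors deposited raw fragment counts, 1 table per library and not pooled. Per the file headers these came from featureCounts 1.4.6-p4, run on reverse-stranded paired reads against GENCODE M13. The deposited tables also give the summed exon length of each gene. Per the labels the genome is mm10. The version of the aligner is not given in the sources used here. No setting for multi-mapping or multi-gene reads stands in the headers' command line, and featureCounts by default leaves such reads out, which lowers genes with near-identical copies or pseudogenes.

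GENCODE vM21 gave the symbol and type of 50376 of the 50600 identifiers. TPM was computed from each count divided by its gene's exon length, with every library brought to a total of 1000000. Each replicate was compared with the other 3 by edgeR 4.0.16 (quasi-likelihood, TMM, at least 10 summed counts, default prior; R 4.3.3), fitted on all genes and tested on simulated data. SEs were derived from the F statistic, as the size of the log2 change divided by its root. On TPM, replicate 2 lay at a median of −0.05 (log2) against the others, and on the TMM scale at 0.00, so its TPM reads slightly low beside the fitted changes. Alternatives were DESeq2 1.42.0, other scaling, filters and priors, other gene lengths and leaving out each replicate.

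No 2 libraries agreed within sampling noise: chi-square per degree of freedom was 4.44 to 6.61 where replicate 2 was not in the pair and 44.6 to 49.4 where it was. A count of 3 stood for 0.0795 to 0.0906 CPM. The members and lists were chosen with earlier results of these data known. Named were the highest and lowest members of each role, genes of the 11 pairs, members under the filter, and up to 12 rises and 12 falls past the test in each comparison; others named as examples were chosen after their values were seen.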

Additional observations from a re-analysis of the deposited data

Results flagged for a closer look

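In 7 of the 59 members with a count, 1 library lay apart from the other 3 by Dixon's criterion for 4 samples, under which chance flags about 1 in 20 groups. All 7 were in replicate 2, which makes 11.9% of these members, against 7.42% of all 17337 genes tested. At 25 TPM or more the shares were 13.2% of 53 members and 10.99% of 6405 genes. With any library counted, the shares of genes were 10.5% of all tested and 12.5% at 25 TPM or more, and those of members did not change. Eif4b stood at 623 TPM there, against 550 ± 1.10 in the other libraries (SD, n = 3), Eif4ebp2 at 177 against 147.6 ± 0.504, and Eif3g at 304 against 269 ± 1.48 TPM. Eif1b stood at 142 against 172 ± 1.02, Eif3b at 509 against 572 ± 5.79, Eif3c at 610.3 against 690.3 ± 7.99, and Eif4e3 at 35.6 against 40.7 ± 0.420 TPM. Of these, Eif3b, Eif3c and Eif4e3 did not pass edgeR's test of replicate 2.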

How the results depend on the processing

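In replicate 2, 10 of the 14 member calls were made under all 9 alternatives (Eef1a1, Eef2, Eef1b2, Eif2d, Eif3g, Eif4b, Eif4e2, Eif4ebp1, Eif4ebp2 and Eif5). The other 4 were Eef1d, Eif1b, Eif3i and Eif4a3. With scaling to total count 8 members were higher and 8 lower, against 11 and 3; the count of lower members was 6 without replicate 1; leaving out replicates 1, 3 or 4 gave 3 to 6 lower and 12 to 14 higher members, against 11. A robust prior, added after the data were seen, gave 14 higher and 3 lower. The difference between Eif4e and Eif4e2 reversed to −0.035 without length correction and to −0.56 with the longest protein-coding transcript as length. The eIF3 range became 4.87-fold without length correction and 3.19-fold with that transcript length. Which subunit genes stood at its ends changed with the length used. The share of members with a C and pyrimidines near the start rose to 29.5% when the start could shift by 10 bases. No paired analysis was possible because the labels give 1 group. Members under 10 summed counts, and Eif4ebp3 with 15, are too thinly counted to compare between libraries. With the longest protein-coding transcript as length, 9 members' mean TPM moved by over 1.5 times: Eef1d, Eef1e1, Eif2a, Eif2d, Eif2s2, Eif3i, Eif3k, Eif4a1 and Eif4e2 (Eef1e1 fell to 125 TPM, the others rose).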
